A study of Mus musculus with 30 samples.

Results

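Junctions between the heavy-chain segment JH4 and the kappa light-chain locus (Igk) were collected from 12 libraries of v-Abl-transformed mouse pro-B cells. In HTGTS-V(D)J-seq, genomic DNA is amplified outward from a bait primer, here at JH4, and each row of the deposited files is 1 read that leaves the bait and continues at a second place in the genome, the prey. The members are all rows whose prey junction lies on chromosome 6 between positions 67505630 and 70676751 of mm9, the 3.17 Mb from the first annotated Vk segment, Igkv2-137, to the end of the constant segment Igkc. There were 614 such rows among 935698 v-Abl rows, and 2074993 rows in all 30 libraries. They made up 33.4% of the 1841 v-Abl rows that lay outside chromosome 12, the chromosome of the bait. Members were chosen by the prey position of their rows, in an interval picked because earlier results of these data had shown rows there, so their number is a description.

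The v-Abl cells were of C57BL/6 background and lacked RAG1, carried an Emu-Bcl2 transgene, a degron on WAPL and a single Igh allele, in all 4 groups. The WT_untreat_Abl and WT_DoxIAA_Abl groups had no further change given in the labels, and the 3CBEdel_untreat_Abl and 3CBEdel_DoxIAA_Abl groups also had a deletion labelled 3IghCBEs, the CTCF-binding elements at the 3′ end of Igh. Every group received RAG1/2 by retrovirus and was held in G1 with 3 µM STI-571, an inhibitor of the Abl kinase, for 4 days. In the DoxIAA groups the last 3 of these days also held 150 µM auxin (IAA) and 2 µg/mL doxycycline, the agents used with the WAPL degron. Each group had 3 libraries, and nothing in the labels says whether they came from separate cultures or clones, so spreads and p-values refer to these libraries and may be technical. The 18 bone marrow libraries, in 6 groups of 3, held pro-B cells of 129SV mice, sorted as B220+ and CD43+ without IgM. By the labels, WT_BM carried no mutation, and CBE1mut_BM, CBE2mut_BM and CBE12mut_BM had the elements CBE1, CBE2 or both mutated. CBE1inv_BM and CBE2inv_BM had 1 of them inverted. Junction rows of DNA carry no RNA markers, and neither the degron nor the deletion can be checked in them.

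Igk encodes one of the light chains of the antibody. It is assembled by joining a Vk to a Jk segment, normally after the heavy chain is complete. The RAG recombinase cuts at recombination signals, each made of a heptamer, a spacer and a nonamer, and prefers to pair a signal with a 12 bp spacer with one of a 23 bp spacer. A cut leaves a coding end, which carries the segment, and a signal end, which carries the heptamer. Vk signals have the short spacer, and Jk and JH signals the long one. D segments of the heavy chain carry the short spacer on both sides.

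The signals at JH4, at the 5 Jk segments and at 4 of the Vk segments with the most rows are shown. Junctions cluster at their borders, except at Igkj3, which had 0 rows. They were read from the mm9 reference, from the last 10 bases of the coding segment (lower case) into the heptamer and the nonamer (both in capitals), 5′ to 3′ along the strand given:
JH4, chr12:114666769-114666816, plus strand: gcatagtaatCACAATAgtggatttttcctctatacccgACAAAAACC
Igkj1, chr6:70672517-70672565, minus strand: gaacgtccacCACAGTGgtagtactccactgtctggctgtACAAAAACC
Igkj2, chr6:70672871-70672919, minus strand: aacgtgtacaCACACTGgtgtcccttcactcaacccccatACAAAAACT
Igkj3, chr6:70673178-70673226, minus strand: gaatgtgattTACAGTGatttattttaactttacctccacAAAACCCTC
Igkj4, chr6:70673502-70673551, minus strand: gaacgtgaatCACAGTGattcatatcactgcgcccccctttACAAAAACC
Igkj5, chr6:70673841-70673889, minus strand: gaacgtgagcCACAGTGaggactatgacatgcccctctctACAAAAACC
Igkv4-79, chr6:68992938-68992975, minus strand: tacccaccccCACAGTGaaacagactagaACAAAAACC
Igkv4-69, chr6:69233760-69233797, minus strand: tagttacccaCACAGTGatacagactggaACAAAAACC
Igkv17-121, chr6:67987303-67987340, plus strand: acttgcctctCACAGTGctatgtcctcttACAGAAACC
Igkv1-110, chr6:68221252-68221289, plus strand: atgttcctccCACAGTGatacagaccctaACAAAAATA
Igkj1, Igkj4, Igkj5, Igkv4-79 and Igkv4-69 matched the consensus heptamer CACAGTG and nonamer ACAAAAACC at 16 of 16 letters. Igkj2 and JH4 matched at 14 letters and Igkj3 at 10, with a T as the first letter of its heptamer.

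Reads across the join show what a row holds. Each of the 4 below was the most frequent junction near the border at that end of its segment. Up to 25 bases of the bait and any inserted bases are in lower case. The first 25 bases that align to Igk, shared bases included, are in capitals:
Igkj1 coding join, 7 rows of 1 library: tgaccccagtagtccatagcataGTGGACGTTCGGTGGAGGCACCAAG
Igkj5 signal join, 9 rows of 1 library: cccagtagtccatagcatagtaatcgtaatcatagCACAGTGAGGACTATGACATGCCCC
Igkv4-79 coding join, 6 rows of 1 library: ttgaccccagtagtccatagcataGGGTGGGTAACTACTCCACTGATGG
Igkv17-121 coding join, 9 rows of 2 libraries: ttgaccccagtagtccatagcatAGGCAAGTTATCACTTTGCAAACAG
In the Igkj5 example the capitals begin at the heptamer of the signal, and 10 bases stand between JH4 and Igk. In the other 3 examples the capitals begin inside the coding segment.

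The Igk rows per library and their level were as follows. The WT_untreat_Abl libraries held 118, 140 and 119 Igk rows, which is 84.7, 99.5 and 67.6 per 100000 rows of the library. The WT_DoxIAA_Abl libraries held 7, 21 and 29 Igk rows, or 32.0, 67.1 and 100 per 100000. These treated values lay on both sides of the untreated range, with 2 of them below it and 1 just above it. The 3CBEdel_untreat_Abl libraries held 55, 54 and 45 Igk rows, or 43.3, 41.1 and 54.3 per 100000. The 3CBEdel_DoxIAA_Abl libraries held 17, 9 and 0 Igk rows, or 76.9, 43.3 and 0 per 100000. The 0 of 13180 rows allows a level of up to 22.8 per 100000 at 3 counts. Group means were 83.9 ± 15.9, 66.5 ± 34.1, 46.2 ± 7.06 and 40.1 ± 38.6 per 100000 rows (SD, n = 3 each). Libraries held 82947 to 175957 rows without treatment and 13180 to 31275 rows with it, so treated levels rest on few Igk rows. A lower count of rows cannot tell fewer cells with a junction from fewer junctions recovered per cell.

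**Figure D1:**
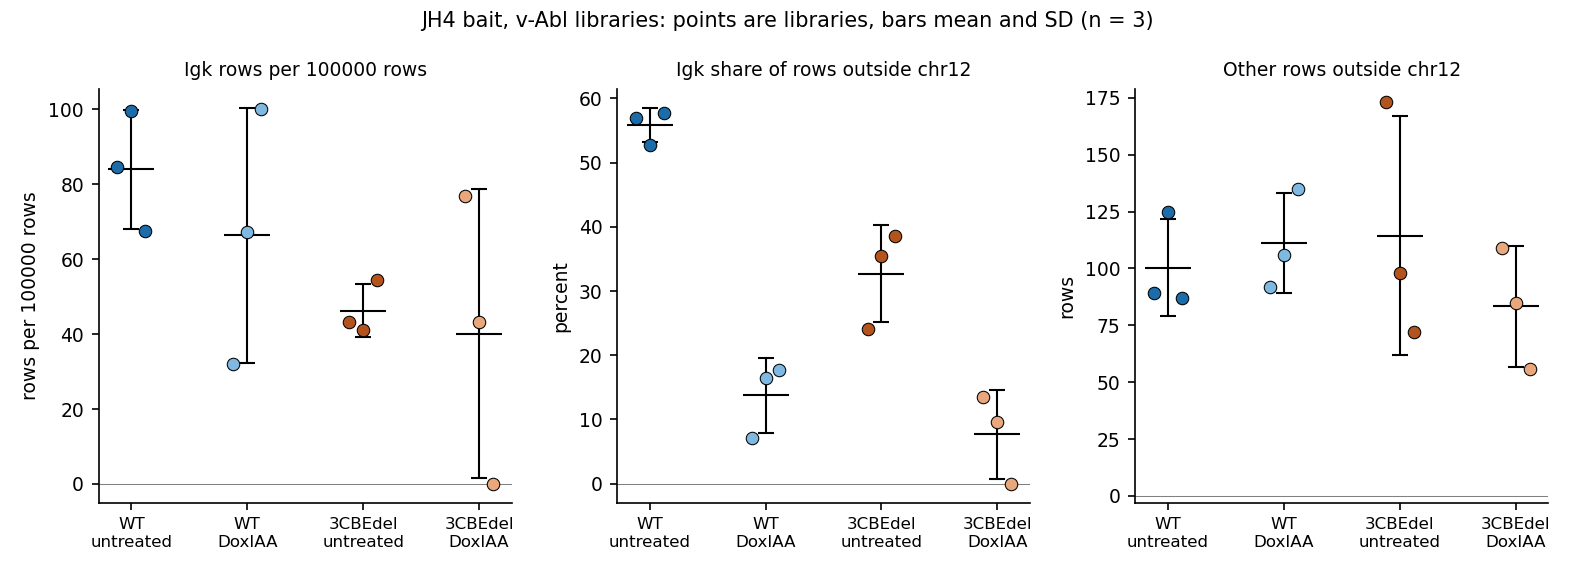
Igk rows per 100000 rows (left), Igk rows as a percentage of rows outside chromosome 12 (middle) and the number of other rows outside chromosome 12 (right) in each v-Abl library, with the mean and SD of 3 libraries per group. The share of WT_untreat_Abl lies between 52.8% and 57.8%, above every other library, while the level per 100000 rows overlaps between treated and untreated libraries.

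Counted by rows, the levels per 100000 did not separate treated from untreated cells. Over both genotypes the DoxIAA mean was 53.3 and the untreated mean 65.1 per 100000, a difference of -11.8 (exact two-sided permutation test with treatment permuted within genotype, p = 0.475, 400 relabelings). In the 8 libraries of 1 sequencing run, 2 of each group, the difference was 9.03 per 100000 (exact p = 0.333), of opposite sign. Within WT the difference was -17.5 (exact p = 0.600) and within 3CBEdel -6.13 (exact p = 0.900), tests of 3 against 3 libraries that cannot go below p = 0.1. The difference between these treatment effects was 11.4 per 100000 (exact test with genotype permuted within treatment, p = 0.755). Only 4 features of the genome had at least 5 rows in at least 3 libraries, namely Igk, both 3 Mb windows at the Igh end of chromosome 12, and a window of chromosome 2. In the limma voom fit over these 4 features, Igk differed by -0.57 ± 0.50 on the log2 scale (SE) between DoxIAA and untreated libraries, with an adjusted p of 0.281. There, 50.0% of the features passed an adjusted p of 0.05. Both were the windows of chromosome 12. The Igk difference passed the threshold when the features were scaled by median-of-ratios (-4.07, adjusted p = 0.00392) or every junction was counted once (-2.10, adjusted p = 4.00e-05), and in the run above it was 0.27. The median-of-ratios scaling used only features with rows in every library, which were the windows of chromosome 12. Of these, the window at 117 to 120 Mb was itself 6.92 higher with treatment on the log2 scale. The value of -4.07 therefore cannot be read apart from that window.

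The untreated 3CBEdel libraries held fewer Igk rows per 100000 than the untreated WT libraries. All 3 values of 3CBEdel_untreat_Abl, 41.1 to 54.3, lay below all 3 of WT_untreat_Abl, 67.6 to 99.5. The difference of means was -37.7 per 100000, with an exact two-sided p of 0.1, the smallest that 3 against 3 libraries allow, and -41.4 within that sequencing run. In the window fit it was -0.86 ± 0.42 on the log2 scale, with an adjusted p of 0.269, and 0% of the 4 features were called. In treated cells the genotypes overlapped, with a difference of -26.4 per 100000 (exact p = 0.5). No comparison of Igk levels between genotypes passed the threshold of 0.05. By distinct Igk junctions per 100000 rows the untreated genotypes overlapped, at 18.1, 14.4 and 32.6 in 3CBEdel and 34.5, 39.8 and 25.6 in WT. Their difference was then -11.6 (exact p = 0.200). Per 100000 distinct junctions they did not overlap, with a difference of -320 (exact p = 0.1).

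Against the other prey outside chromosome 12, the Igk rows took a smaller part in treated cells. In the untreated WT libraries they were 57.0%, 52.8% and 57.8% of the rows outside chromosome 12, and 7.07%, 16.5% and 17.7% in the treated ones. In 3CBEdel cells they were 24.1%, 35.5% and 38.5% without treatment and 13.5%, 9.57% and 0% with it. Treated and untreated libraries of a genotype did not overlap. Over both genotypes the share was 10.7% with treatment and 44.3% without, a difference of -33.6 percentage points (exact two-sided p = 0.00500, the smallest that 400 relabelings give). The difference was -42.1 points in WT and -25 points in 3CBEdel, each with an exact p of 0.1, the smallest possible. After Benjamini-Hochberg adjustment over the 11 exact tests the pooled difference had p = 0.0550, above the threshold of 0.05. Its exact p was already the smallest possible, so alone it could not pass an adjustment over 11 tests. The adjusted value therefore does not decide the question. Within the same sequencing run it was -28.2 points (exact p = 0.0556, the smallest for that design).

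The share and the level per 100000 rows have different denominators, and the share also depends on the other rows outside chromosome 12. Those rows numbered 87 to 125 in WT_untreat_Abl, 92 to 135 in WT_DoxIAA_Abl, 72 to 173 in 3CBEdel_untreat_Abl and 56 to 109 in 3CBEdel_DoxIAA_Abl. Per 100000 rows their means were 67.4 and 99.1 in the untreated groups and 409 and 442 in the treated groups. By library these levels were 49.4 to 88.8 in WT_untreat_Abl and 74.5 to 136 in 3CBEdel_untreat_Abl. They were 339 to 466 in WT_DoxIAA_Abl and 409 to 493 in 3CBEdel_DoxIAA_Abl. Every treated library was also smaller than every untreated one, so library size and treatment cannot be told apart. Which denominator fits the biology was not tested.

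Repeated reads are part of these counts. Counting a combination of prey position, strand, bait end and read content once per library left 243 distinct junctions, of which 100 had 1 row and the most frequent had 11 rows. Distinct junctions numbered 149 in WT_untreat_Abl, 20 in WT_DoxIAA_Abl, 69 in 3CBEdel_untreat_Abl and 5 in 3CBEdel_DoxIAA_Abl. Per 100000 rows this was 32.7, 24.4, 20.2 and 8.92. With every junction of a library counted once, Igk and others alike, the treatment difference over both genotypes was -474 per 100000 distinct junctions (exact p = 0.00500), past the threshold that the level by rows missed. Distinct junctions of all kinds were 3.86% to 5.45% of the rows in untreated libraries and 8.01% to 13.5% in the smaller treated ones. This denominator thus differed with library size and treatment alike, and its part in the difference was not tested. With distinct Igk junctions over all rows, an alternative chosen after seeing the data, the treatment difference was -11.5 per 100000 (exact p = 0.0350). In the 5 treated libraries with Igk rows a single junction made up 24.1% to 100% of the Igk rows, against 5.00% to 20.4% in the untreated libraries. Of 231 distinct junctions over all libraries, 10 occurred in 2 or more libraries, 7 of them in libraries of different sequencing runs.

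Most Igk junctions lay at the borders of annotated segments. Of the 614 rows, 371 lay in or within 100 bp of a Vk segment (60.4%), 209 at a Jk segment (34.0%) and 34 at neither (5.54%). In all, 546 rows (88.9%) began within 10 bp of the border between a segment and its signal. An end was called coding when the read runs from the border into the segment and signal when it runs the other way, on the side of the heptamer, within 100 bp of the segment. The coding ends of Vk gave 357 rows and those of Jk 114, and signal ends gave 14 rows at Vk and 95 at Jk. Among Vk coding rows 96.4% and among Jk coding rows 100% lay within 10 bp of the border. The median loss was 2 bp at Vk coding ends and 1 bp at Jk coding ends. At the heptamer of Jk signals, 46.3% of the rows began at the first base.

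**Figure D2:**
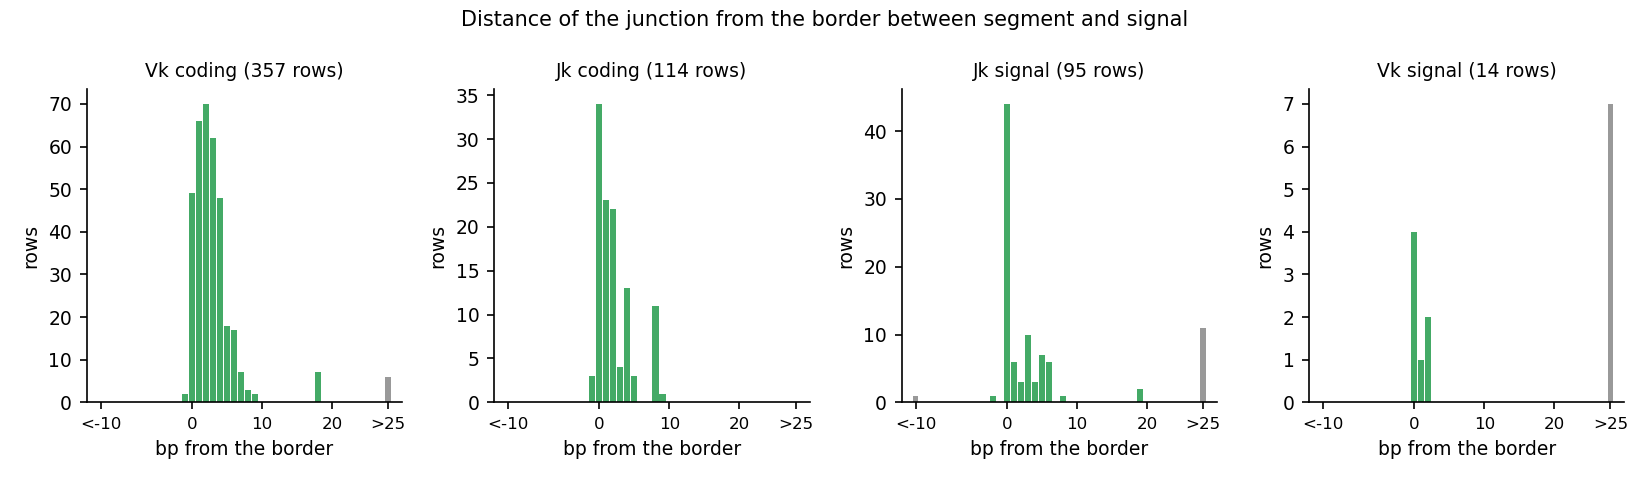
Rows by the distance of the junction from the border between segment and signal, in bp into the prey (values above 0 are bases lost and the far bars hold rows beyond 25 bp or below -10 bp), for each class of end. Most Vk coding, Jk coding and Jk signal rows lie within 10 bp of the border, and the 14 Vk signal rows split between the border (7 rows) and the far bar (7 rows).

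The Jk segments, the 3′ partners of kappa joining, were described first. Igkj1 had 57 rows, Igkj2 52, Igkj4 49 and Igkj5 51. Igkj3, which in the mouse is a nonfunctional segment, had 0 rows in every library, so the 209 Jk rows came from the other 4 segments. The segments differed in the end that was joined. Igkj1 gave 49 coding and 8 signal rows, Igkj2 28 and 24, and Igkj4 35 and 14, but Igkj5 gave 2 coding and 49 signal rows.

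For Igkj1 the rows were 4, 22 and 6 in WT_untreat_Abl, 4, 6 and 12 in 3CBEdel_untreat_Abl, 0, 0 and 3 in WT_DoxIAA_Abl and 0 in all 3CBEdel_DoxIAA_Abl libraries. For Igkj2 they were 8, 9 and 23, then 6, 3 and 3, and 0 in all 6 treated libraries. Every untreated library held rows of both segments, and 1 treated library held rows of Igkj1. Untreated levels were 2.87 to 15.6 per 100000 rows at Igkj1 and 2.28 to 13.1 at Igkj2. A count of 0 allows 9.59 to 22.8 per 100000 in the treated libraries. Lower levels there were therefore mostly not detectable at this depth, which also holds for Igkj4. For Igkj4 the rows were 12, 12 and 15 in WT_untreat_Abl, 5, 0 and 2 in 3CBEdel_untreat_Abl, 3, 0 and 0 in WT_DoxIAA_Abl and 0 in 3CBEdel_DoxIAA_Abl. By rows its 3 WT_untreat_Abl values were 8.52 to 8.62 per 100000, above the 3CBEdel_untreat_Abl libraries at 0 to 3.93. These rows include repeated reads. The distinct Igkj4 junctions numbered 6, 5 and 3 in WT_untreat_Abl and 3, 0 and 2 in 3CBEdel_untreat_Abl, counts that meet at 3. The 3 rows of WT_DoxIAA_Abl replicate 1 came to 13.7 per 100000. For Igkj5 they were 6, 3 and 5, then 7, 3 and 4, then 1, 9 and 4, then 0, 9 and 0. Igkj5 held 23 of the 29 Jk rows of treated cells, and its rows were found in 4 of the 6 treated libraries.

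All 29 Jk rows of treated libraries were signal ends, 20 in WT_DoxIAA_Abl and 9 in 3CBEdel_DoxIAA_Abl. In untreated libraries the signal share of the Jk rows was 66.7%, 26.1% and 16.3% in WT and 59.1%, 75.0% and 19.0% in 3CBEdel. The treated rows came from 6 and 1 distinct junctions, and 9 rows of WT_DoxIAA_Abl replicate 2 were 1 junction. The 9 rows of 3CBEdel_DoxIAA_Abl replicate 2 were likewise 1 junction, 65 bp inside the signal side of Igkj5, away from the heptamer. With so few junctions no test of the ends was made.

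**Figure D3:**
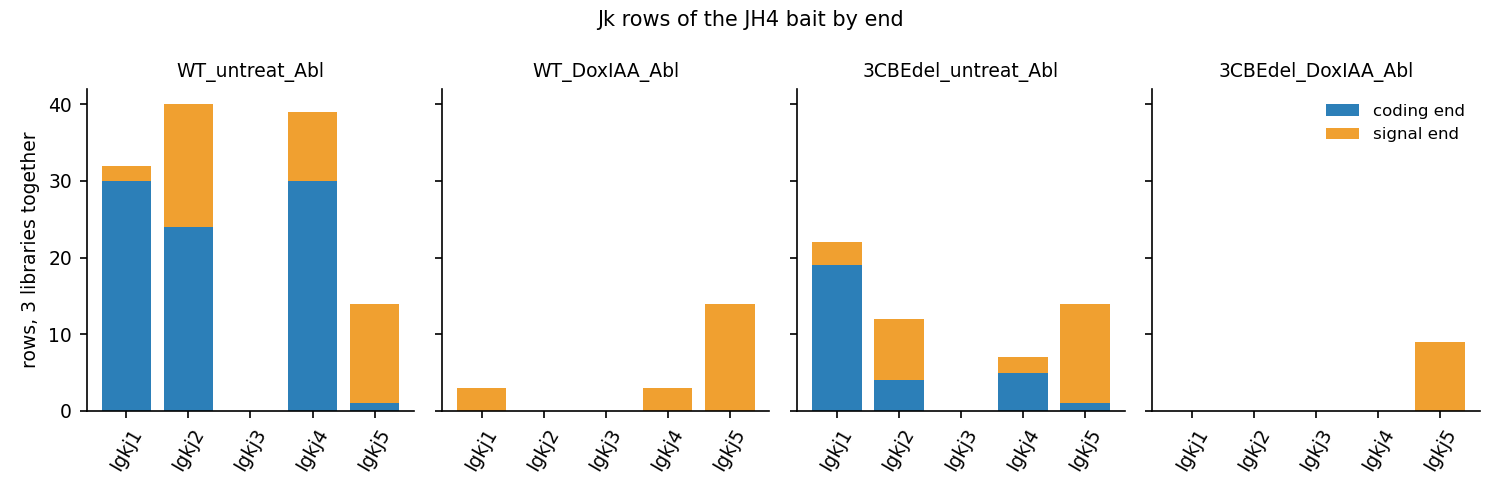
Rows at each Jk segment, split into coding and signal ends, for the 3 libraries of each group together. Igkj1, Igkj2 and Igkj4 carry mainly or partly coding ends in untreated cells, Igkj5 nearly only signal ends, Igkj3 no rows, and treated cells only signal ends.

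The annotation listed 102 Vk segments in the interval, 39 on the plus and 63 on the minus strand, and 50 of them had at least 1 row. The 10 Vk segments with the most rows, named by their row total, held 186 of the 371 Vk rows (50.1%). They were Igkv4-79 (26 rows), Igkv1-110 (21), Igkv17-121, Igkv4-78 and Igkv4-69 (20 each), Igkv4-50 (18), Igkv4-73, Igkv4-71 and Igkv5-48 (16 each) and Igkv4-70 (13). Since they were chosen for their rows, these levels are a description.

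Igkv4-79 had 12, 7 and 4 rows in WT_untreat_Abl, 1, 2 and 0 in 3CBEdel_untreat_Abl and 0 in all treated libraries. In WT_untreat_Abl this was 2.27 to 8.62 per 100000 rows, while a count of 0 allows 9.59 or more in each treated library, so a lower level there was not detectable at this depth. Igkv17-121 had 1, 4 and 6 rows in WT_untreat_Abl, 3, 6 and 0 in 3CBEdel_untreat_Abl and 0 in the treated libraries. Igkv5-48 had 5, 3 and 8 rows in WT_untreat_Abl, from 1, 1 and 2 distinct junctions, and 0 in every other library. Its WT_untreat_Abl levels were 2.13 to 4.55 per 100000 rows. A count of 0 allows 2.28 to 3.62 in the 3CBEdel_untreat_Abl libraries and 9.59 to 22.8 in the treated ones. Igkv1-110 was the only one of the 10 with signal ends, 7 of its 21 rows. All 7 were 1 junction of 3CBEdel_untreat_Abl replicate 1, which lay 89 bp from the border and not at the heptamer. Igkv4-50 was found in 4 libraries, with 4, 9 and 0 rows in WT_untreat_Abl, 1 row in 3CBEdel_untreat_Abl replicate 3 and 4 rows in WT_DoxIAA_Abl replicate 3.

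The Igkv4 family, the largest group of annotated Vk segments here, held 198 of the 371 Vk rows (53.4%) and 26 of the 102 segments (25.5%). Of its 26 segments 21 had rows, at a mean of 7.62 rows per segment, against 3.64 over all Vk. The family took 64.6% of the Vk rows in WT_untreat_Abl, 36.2% in 3CBEdel_untreat_Abl, 36.4% in WT_DoxIAA_Abl and 26.7% in 3CBEdel_DoxIAA_Abl. By library the share was 60.3%, 72.4% and 59.4% in WT_untreat_Abl and 25%, 40.0% and 45.5% in 3CBEdel_untreat_Abl, and the 2 groups did not overlap. Over distinct Vk junctions the family took 54 of 90 (60%) in WT_untreat_Abl and 16 of 36 (44.4%) in 3CBEdel_untreat_Abl, a narrower gap. The treated shares rest on 33 and 15 Vk rows, from 13 and 2 distinct junctions. Closely related Igkv4 segments share sequence, so the deposited alignment set which member a read was given to.

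Vk segments with both consensus elements, CACAGTG and ACAAAAACC, numbered 33 of 102 and held 195 Vk rows, a mean of 5.91 rows per segment, against 2.55 over the other 69. The motifs were sought on the segment's strand at its end, with a spacer of 12 bp that may differ by 1 bp. Within the Igkv4 family 19 segments with both elements held 179 rows (9.42 per segment), and outside it 14 such segments held 16 rows (1.14 per segment). The other 62 segments outside the family held 157 rows (2.53 per segment).

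Along the locus, Vk rows were counted by distance from Igkj1 in 4 stretches of 800 kb. In WT_untreat_Abl 8.73% of 229 Vk rows lay in the nearest stretch, 49.3% in the second, 23.6% in the third and 18.3% in the farthest. In 3CBEdel_untreat_Abl the shares of 94 Vk rows were 28.7%, 20.2%, 27.7% and 23.4%. In that group 11 of the rows in the nearest stretch were 1 junction at Igkv8-28 in replicate 2, and without it the nearest stretch held 16 of 83 Vk rows (19.3%). The nearest stretch held 32 of the 102 segments and the second 26. The median distance was 1663, 1479 and 1502 kb in the WT_untreat_Abl libraries and 1954, 1663 and 1525 kb in the 3CBEdel_untreat_Abl libraries, which overlap. In 3CBEdel_DoxIAA_Abl all 15 Vk rows came from replicate 1 and from 2 junctions, at Igkv12-44 (11 rows) and Igkv4-70 (4 rows).

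**Figure D4:**
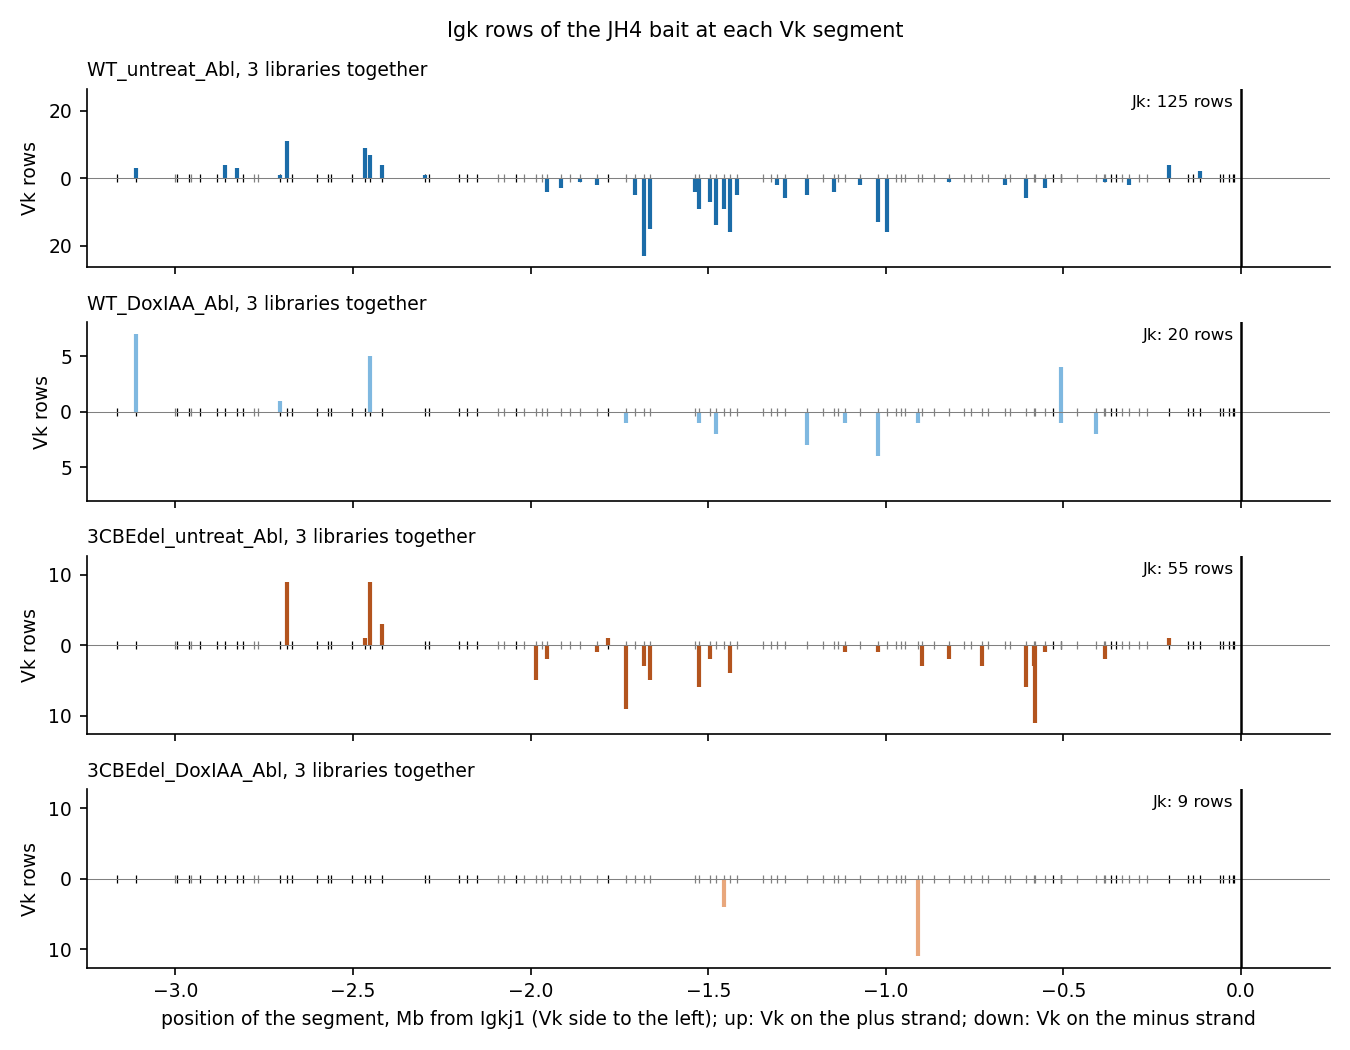
Rows at each Vk segment by its distance from Igkj1 in Mb, for the 3 libraries of each group together; bars above the line are segments on the plus strand and bars below on the minus strand, ticks mark every annotated segment, and the vertical scale differs between groups. In WT_untreat_Abl the tallest bar is Igkv4-79 with 23 rows, on the minus strand, and the Jk rows are given as totals of 125, 20, 55 and 9.

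Orientation was read from the strand of the prey, where plus means that the read runs towards higher positions from the junction. Strand also assigned the coding and signal ends, so their orientation is no separate result. Coding ends of Vk on the minus strand gave 277 plus rows and those of Vk on the plus strand 80 minus rows, and the 4 and 10 rows of opposite strand were the Vk signal ends. Of all Igk rows 68.7% were plus, against 49.2% of the 1227 rows outside chromosome 12 and Igk. The share of plus rows was 61% to 82.4% in the untreated libraries and 31% to 42.9% in WT_DoxIAA_Abl. Over distinct junctions it was 60.4% to 78.3% in the untreated libraries and 40%, 66.7% and 44.4% in WT_DoxIAA_Abl, which overlap. By rows it was 88.2% and 0% in the pair of 3CBEdel_DoxIAA_Abl libraries with Igk rows, which rest on 4 and 1 distinct junctions.

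The join itself was compared with other rows of the v-Abl libraries. On the bait side 94.3% of the Igk rows ended within 10 bp of the JH4 coding end, against 48.1% of the rows outside chromosome 12 and Igk. A bait that ran past the coding end into the JH4 signal was found in 3.26% of Igk rows and 25.1% of those others. Bait and prey overlapped in 40.7% of the Igk rows, met without a gap in 22.3% and had inserted bases in 37.0%. Among the 897985 joins to heavy-chain D segments these shares were 52.7%, 25.6% and 21.7%, and among the other rows outside chromosome 12 they were 73.2%, 17.0% and 9.78%. By rows, inserted bases were found at 63.2% of Jk signal ends, 43.9% of Jk coding ends and 29.4% of Vk coding ends. The Jk signal rows with inserts include 1 junction of 9 rows in WT_DoxIAA_Abl replicate 2 and 1 of 9 rows in 3CBEdel_DoxIAA_Abl replicate 2. Shares of inserts over distinct junctions were not counted.

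Some inserts held a piece of a D segment. A stretch of 8 or more bases equal to an annotated D was found in 37 of 209 Jk rows (17.7%) and 3 of 371 Vk rows (0.809%). Among heavy-chain V joins it was found in 73.1%. The runs matched Ighd1-1 alone in 13 rows, Ighd2-3 alone in 11 and Ighd2-4 alone in 9, and the other 7 rows fitted several D segments. In WT_untreat_Abl 21 Jk rows carried such a run, of which replicate 3 held 18 and the others 1 and 2. In 3CBEdel_untreat_Abl there were 4, all in replicate 3, and in WT_DoxIAA_Abl 12. In that treated group 9 of the 12 were the Igkj5 junction of replicate 2 shown above, whose insert stands between JH4 and the heptamer.

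The 34 rows away from segments lay at 15 positions in 8 libraries. At 10 of these positions, with 28 rows, a heptamer that begins with CAC and a nonamer at a spacing of 12 or 23 bp matched the consensus at 13 or more of 16 letters within 10 bp of the junction on either strand. Over 3171 positions spaced 1000 bp apart through the interval, 0.0315% had such a match. The match nearest to the consensus, at 16 letters, was at chr6:69060899 to chr6:69060903, where 8 rows lay in the libraries.

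The bone marrow libraries were nearly empty at Igk. They held 2 Igk rows among 1139295, both in CBE1mut_BM replicate 1 (2.75 per 100000, exact 95% binomial interval 0.333 to 9.94) and with 1 read sequence, at the coding end of Igkv8-21. The pooled level was 0.176 per 100000 in bone marrow, against 65.6 per 100000 in the v-Abl libraries. Igk made up 0.229% of the 873 marrow rows outside chromosome 12, while the level of all such rows was 36.5 to 132 per 100000 rows. The genotype of 5 of the 6 marrow groups, the cells, strain, RAG source and alignment target differ between both sets and cannot be told apart. The lowest level in an untreated v-Abl library was 41.1 per 100000. The most that a count of 0 allows in a bone marrow library was 27.0 per 100000 at 3 counts, or 33.2 as the upper end of the exact 95% binomial interval.

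Other antigen receptor loci cut by RAG gave few rows with the same bait. Igl, the lambda light-chain locus, had 0 rows, the T cell receptor loci Tcrb and Tcrg 0 and Tcra/Tcrd 6, against 614 at Igk. These loci are shorter than Igk, at 176, 667, 174 and 1795 kb against 3171 kb. The rest of chromosome 6 held 71 rows in 11 libraries. At the bounds of the interval the nearest row inside was 54.9 kb from the Vk end and 2.73 kb from the Igkc end, and the nearest row outside was 25 kb beyond Igkc.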

How the data were processed

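Per the file headers, each deposited row describes 1 read by the positions and strands of its bait and prey and its sequence. The authors aligned v-Abl reads with Bowtie2 to mm9, per the submitters' processing notes and labels, and bone marrow reads to mm9 with a further Igh sequence; the version is not given in the sources used here. Enzyme blocking was left out, per the labels' protocols. Deposited mapping quality and duplicate columns are 0 on every row. The other values are positions, strands and lengths, so rows were counted here and set per 100000 rows, and count models of edgeR type were not used. Libraries held 13180 to 175957 rows in v-Abl cells and 11105 to 98682 in bone marrow. PCR reads are not independent molecules, so intervals cover counting error only.

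Segments and their borders came from the GENCODE vM1 annotation and the reference of the same build. In 447 of 447 gapless Igk rows the first 25 prey bases equalled it. A signal with at least 12 of 16 matches was found for 97 of 102 Vk, and for the others the annotated end was used. D names were matched through the RefSeq table of GRCm38.p6. Members and lists were chosen with earlier results of these data known. The named segments are every annotated Jk and the 10 Vk with the most rows. Other loci are Igl, Tcra/Tcrd, Tcrb and Tcrg.

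Group means were compared by exact permutation tests (Python 3.11.15, numpy 2.4.6), and windows with limma 3.58.1 voom in R 4.3.3, adjusted by Benjamini-Hochberg within a contrast. Tested on simulated data with the 4 features of the fit, a 4-fold lower Igk over both genotypes was called in 98.5% of 200 tables and no change in 2.00%. Those tables had 1 fixed spread for all features, no repeated reads and no change at the chromosome 12 windows. In the data 1 of these windows differed by 6.92 on the log2 scale. Both rates therefore hold for such tables and need not hold for these libraries. Same-numbered libraries did not pair: over 76 Igh segments 4 of 18 such pairs had a correlation over 0.1. The alternatives were repeated junctions counted once, other denominators, wider bounds, a log scale, a segment distance of 500 bp, left-out libraries, a replicate block, windows of 1 Mb and 1 sequencing run.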

Additional observations from a re-analysis of the deposited data

Results flagged for a closer look

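Rows just outside the Igk interval were a signal in data that the comparisons do not use. WT_untreat_Abl replicate 2 held 5 rows at chr6:70701777, plus strand, 25 kb beyond Igkc, which is 3.55 per 100000 rows and above the 2.13 that a count of 0 allows. They were 1 distinct junction, and no other v-Abl library held a row within 100 kb outside the interval. A heptamer and nonamer at a spacing of 23 bp matched the consensus there at 13 of 16 letters.

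The Tcra/Tcrd locus had 4 rows in WT_DoxIAA_Abl replicate 3, or 13.8 per 100000 rows, above the 10.4 that a count of 0 allows, from 2 distinct junctions. The other 2 Tcra/Tcrd rows were 1 each in WT_untreat_Abl replicate 2 and 3CBEdel_DoxIAA_Abl replicate 2.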

How the results depend on the processing

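Of 205 alternatives over 13 results, 188 kept the direction and the side of the threshold. Limits: treated libraries hold 0 to 29 Igk rows, so 1 junction or 1 library can set a value, and tests of 3 against 3 libraries cannot pass. A mapping quality minimum of 20 was not run, since that column is 0 on every row.

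For the level per 100000 rows, DoxIAA minus untreated over both genotypes was -474 with every junction of the library counted once (exact p = 0.00500), -33.6 as a percentage of rows outside chromosome 12 (exact p = 0.00500), -11.5 with distinct Igk junctions over all rows (exact p = 0.0350) and 9.03 in sequencing run 2 alone (exact p = 0.333). In that run the WT difference was 0.123 and the 3CBEdel difference 17.9. Leaving out 1 library gave -34.4 to -0.272 in WT, -24.6 to 13.9 in 3CBEdel, where the value turned without 3CBEdel_DoxIAA_Abl replicate 3, and -21.0 to -1.79 over both. The difference between treatment effects was -1.17 on the log2 scale, -5.17 with distinct Igk junctions and -7.07 to 31.4 with 1 library left out. The genotype differences kept their sign, -45.9 to -30.0 without and -44.8 to -6.36 with treatment.

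The share of rows outside chromosome 12 was -28.2 points in run 2 (exact p = 0.0556), where no p under the threshold is possible, and -35.7 to -31.6 with 1 library left out (exact p at most 0.0100), -44.1 to -38.8 in WT and -29.3 to -21.2 in 3CBEdel. The Vk share of Igk rows differed by -12.3 points and the Jk share by 11 (exact p = 0.545 and 0.640), with ranges of -34.4 to 9.72 and -14.0 to 36. Both turned without 3CBEdel_DoxIAA_Abl replicate 2. In the window fit the treatment difference was -4.07 with median-of-ratios scaling (adjusted p = 0.00392), which rested on the chromosome 12 windows alone. It was -2.10 with distinct junctions (adjusted p = 4.00e-05), 0.27 in run 2 and -1.03 to -0.00 with 1 library left out. The untreated genotype difference was -1.04 to -0.73. The cause was not tested.

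The replicate numbers do not pair the libraries. With the replicate block the share differed by -33.6 points (exact p = 0.0312), the level by -11.8 (exact p = 0.562), and the window fit by -0.53 (adjusted p = 0.334), and no call changed.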
